A study of Xenopus laevis with 46 samples.

Results

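Transfer RNA (tRNA) genes were followed in RNA captured as newly made from Xenopus laevis blastulae. Animal pole (AP) and vegetal pole (VP) tissue was taken apart. A tRNA name was any gene name of the deposited table formed from trna, the single-letter code of an amino acid and an anticodon, such as trnar-ucg for arginine with the anticodon UCG. There were 50 such names among 49233 names, and they were summed from 787 of 50489 rows. The names covered 20 amino acids and a name listed for a stop codon, trnastop-uca. RefSeq's v10.1 assembly holds 2612 tRNA genes, and all 50 names matched one of its names. In that assembly 2125 of the 2612 genes (81.4%) had a tRNA gene as the neighbour on each side, and 155 had none on either side.

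All embryos had the genotype Wildtype and had received 5-ethynyl uridine (EU) by injection at the 1-cell stage. EU is a uridine analog that enters RNA during synthesis and lets that RNA be tagged with biotin and captured. Experiment 1 held 30 libraries from 3 clutches, with 3 libraries for each region at 5, 6, 7, 8 and 9 hours post fertilisation (hpf). Experiment 2 held 16 libraries from 1 other clutch at 6 to 9 hpf, where replicates 4 and 5 were technical. No library of embryos without EU was analysed here, so label-independent carry-over in the capture has no measured level. Values are normalised read counts, and in each list of values below the libraries stand in the order of their replicate numbers.

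RNA polymerase III (Pol III) makes tRNAs, the 5S ribosomal RNA and a small set of other short RNAs. At a tRNA gene, the factor TFIIIC binds promoter boxes that lie inside the transcribed sequence and brings in TFIIIB, which places the polymerase. The transcript is then trimmed, modified, exported and charged with its amino acid by an aminoacyl-tRNA synthetase. Xenopus embryos start with maternal tRNA made in the oocyte, and the embryo's own genes, those read by Pol III included, are largely silent until the midblastula transition.

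Library totals lay between 1783721 and 3063366 in experiment 1 and between 1901519 and 3273514 in experiment 2. The number of gene names above 0 differed more, from 4137 to 18199 and from 4364 to 21140, and how far sparse libraries set the listed zeros was not tested. The lowest were VP replicate 2 at 8 hpf, with 4137 names, and VP replicates 5 and 4 of experiment 2 at 7 hpf, with 4364 and 7306. The regions matched their labels: of 11 vegetal maternal markers tested, 10 were higher in VP over all times and 0 in AP (limma, Benjamini-Hochberg adjusted p under 0.05, against 0.709% of all 19896 genes tested in either direction). The germ plasm gene grip2.L, for example, was listed at 2667, 1965 and 1460 in VP and at 69, 0 and 0 in AP at 5 hpf. How much of such maternal RNA was captured without label was not tested. At 9 hpf, 4 of 14 animal markers were lower and 4 of 15 vegetal zygotic markers were higher in VP (0.377% of all genes in either direction). Some of these markers had been called in earlier work on the same data, so the marker counts are a description.

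In experiment 1 the summed tRNA value was low at 5 and 6 hpf (median 18 and highest 401 over 12 libraries). Its group means were higher at each later time in both regions, with a higher mean in AP than in VP from 5 to 9 hpf. In AP the summed tRNA value was 83, 0 and 0 at 5 hpf, and by 6 hpf it was 24, 48 and 401. The libraries at 7 hpf held 243, 1454 and 1570, and at 8 hpf they held 990, 8057 and 2907. At 9 hpf it reached 2247, 9430 and 10309. All 3 AP libraries at 9 hpf lay above all 6 at 5 and 6 hpf and above all 3 at 7 hpf, and they overlapped those at 8 hpf. Replicate 1 was the lowest AP library at 6, 7, 8 and 9 hpf, and it was also the AP library with most gene names above 0 at each of these times (17494 at 9 hpf, against 15202 and 12957 in replicates 2 and 3).

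In VP the summed tRNA value was 0, 24 and 12 at 5 hpf, and by 6 hpf it was 0, 70 and 0. The libraries at 7 hpf held 248, 207 and 403, and at 8 hpf they held 3211, 390 and 1302. At 9 hpf it reached 4966, 2858 and 4747. All 3 VP libraries at 7 hpf already lay above all 6 at 5 and 6 hpf, while those at 8 and 9 hpf overlapped each other. The value of 390 in VP replicate 2 at 8 hpf came from a single name, trnag-gcc, in the library with fewest gene names above 0.

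As a share of the library, tRNA genes made up 0.257% ± 0.135 (SD, n = 3) of AP and 0.173% ± 0.0367 (SD, n = 3) of VP values at 9 hpf. The mean share in VP was 0.380 of the mean share in AP at 5 hpf and 0.148 at 6 hpf. It was 0.277 at 7 hpf, 0.475 at 8 hpf and 0.676 at 9 hpf. The ratios at 5 and 6 hpf rest on summed values of 0 to 401 a library. The VP mean at 8 hpf includes the sparse replicate 2. At 9 hpf the AP and VP libraries overlapped. No test was made on the summed value, because the names were chosen with earlier results of these data known. In the clutch of experiment 2, the AP sum from 6 to 9 hpf was 69 and 135, then 1386 and 1835, then 5553 and 3522, and finally 10761 and 12326. Its VP sum was 204 and 103, then 6273 and 1820, then 2117 and 1797, and finally 12410 and 11988. The order of regions seen in experiment 1 was therefore present at 8 hpf only in that clutch, where the mean share of the library in VP was 0.468 of that in AP. At 6, 7 and 9 hpf its mean share of the library in VP was 1.60, 1.86 and 1.04 times that in AP. Its VP libraries at 7 hpf were the sparse ones named above, and in replicate 5 the name trnav-cac alone gave 1527 of the 1820, or 83.9%. In whole tissue pieces, more cells transcribing a gene and more RNA per cell cannot be told apart.

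**Figure D1:**
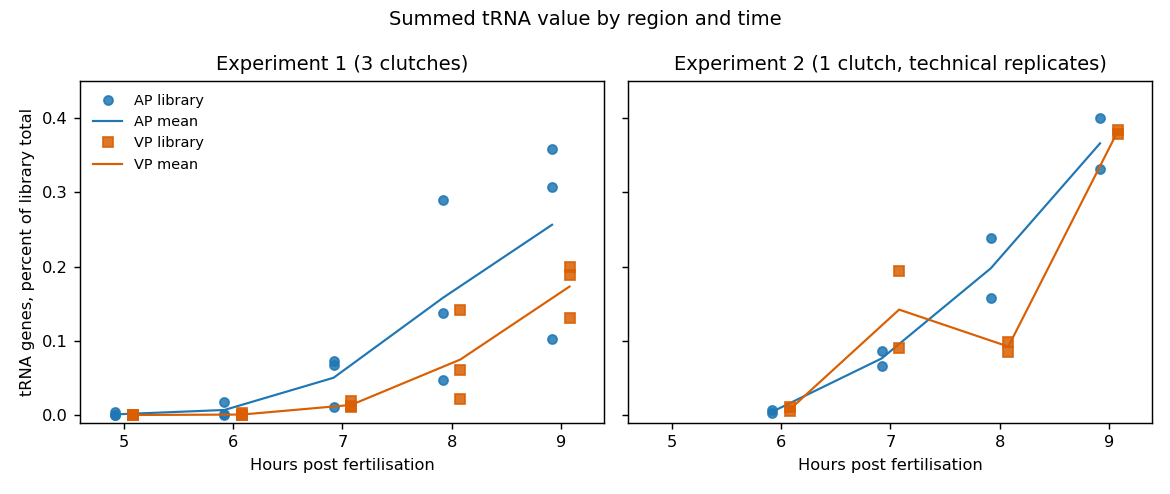
Summed value of the 50 tRNA names as a percent of the library total (vertical axis) against hours post fertilisation, for each library of AP (circles) and VP (squares), with lines through the means. In experiment 1 the VP mean lies below the AP mean from 6 to 9 hpf, reaching 0.173% against 0.257%, while in experiment 2 both regions end between 0.332% and 0.401%.

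More names were present in every library of a group at each step from 7 to 9 hpf in AP. There, the number of names above 0 in all 3 libraries was 0 at 5 and 6 hpf, 7 at 7 hpf, 20 at 8 hpf and 36 at 9 hpf. In VP it was 0 from 5 to 8 hpf and 15 at 9 hpf. In experiment 2, names above 0 in both technical replicates numbered 5, 27, 37 and 40 in AP and 2, 5, 37 and 39 in VP at 6, 7, 8 and 9 hpf. The number of gene names above 0 limits such counts, and it was 4137 in VP replicate 2 at 8 hpf, which held 1 tRNA name.

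The AP names above 0 in all 3 libraries at 7 hpf and at each later time were trnaa-ugc, trnad-guc, trnaf-gaa, trnai-aau, trnak-uuu, trnal-uaa and trnap-cgg. They serve 7 amino acids: alanine, aspartate, phenylalanine, isoleucine, lysine, leucine and proline. Another 12 met this mark from 8 hpf, among them the highest of the family, trnar-ucg, both glutamine names (trnaq-cug and trnaq-uug) and the valine names trnav-cac and trnav-uac. A further 17 met it at 9 hpf, which include methionine (trnam-cau), tryptophan (trnaw-cca), histidine (trnah-gug), tyrosine (trnay-gua) and 3 of the 4 serine names. The other 14 names never met this mark in AP, and 35 never met it in VP. The 15 names that met it in VP at 9 hpf served alanine, cysteine, aspartate, glutamate, phenylalanine, isoleucine, lysine, glutamine, arginine, serine, threonine, valine, tryptophan and tyrosine. Leucine, proline, glycine, asparagine, histidine and methionine had no name above 0 in all 3 VP libraries at any time. The mark can turn on a low value in 1 library, so it does not give an order of onset. In AP at 7 hpf, trnap-cgg met it at 4, 204 and 61, and trnar-ucg missed it at 0, 164 and 154. In experiment 2, 27 names, trnar-ucg among them (151 and 198), were above 0 in both AP libraries at 7 hpf.

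Of the 50 names, 5 were listed at 0 in all 30 libraries of experiment 1: trnaf-aaa, trnah-aug, trnay-aua, trnar-acg and trnar-ccg. The first 3 were at 0 in experiment 2 as well. The anticodons AAA, AUG and AUA have few annotated genes, but trnar-acg has 79 in the reference, and its values in all 46 libraries came to 24.

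**Figure D2:**
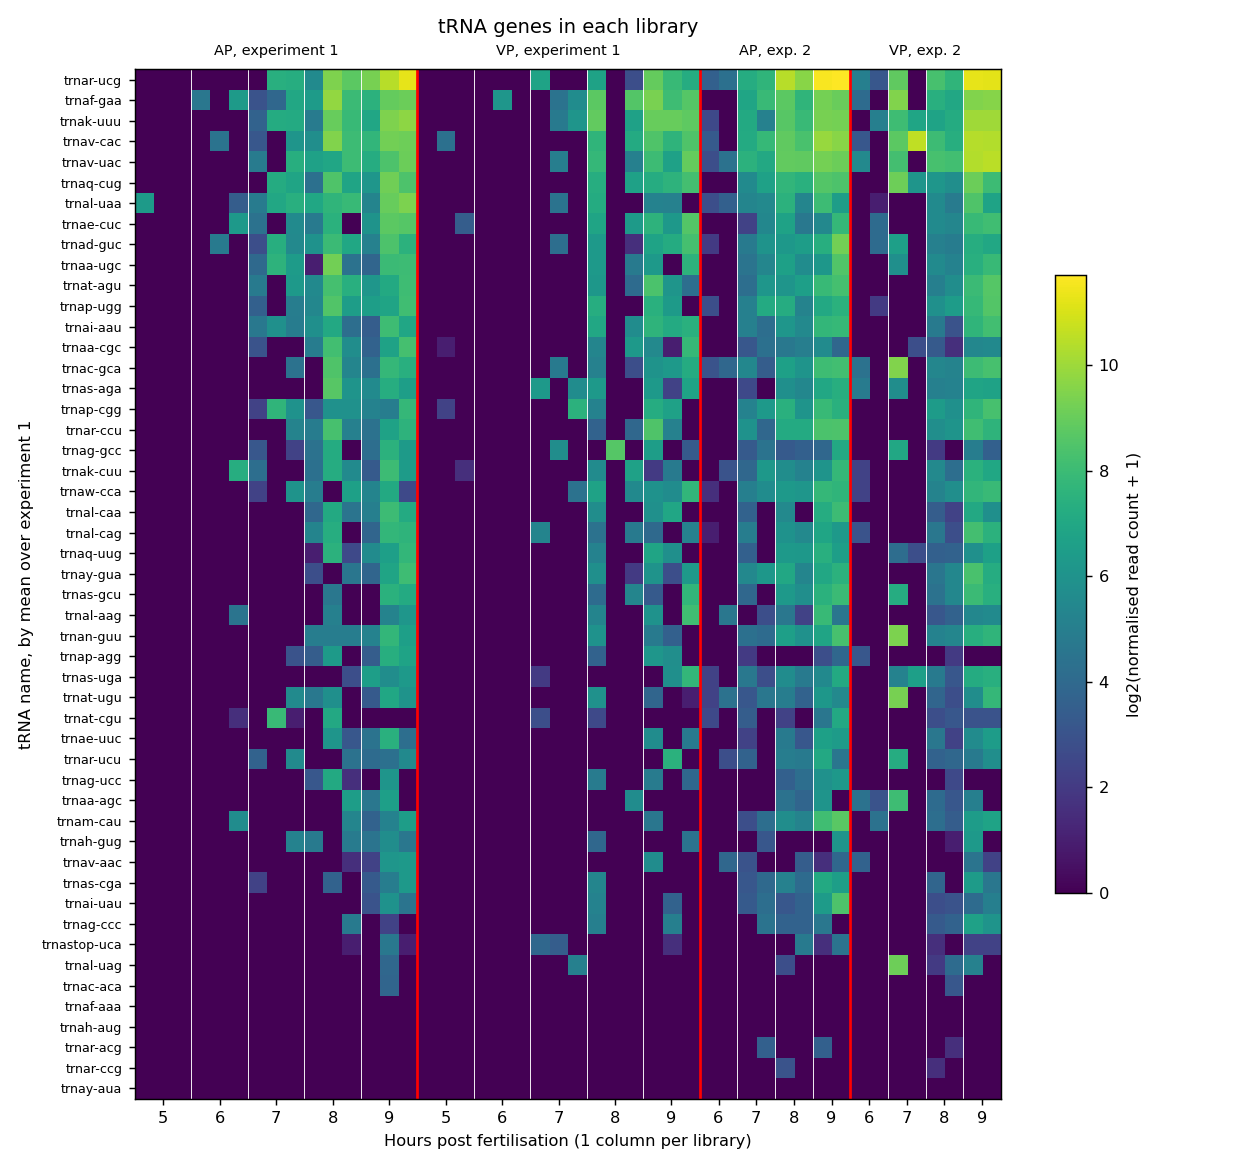
Each row is a tRNA name, ordered by its mean over experiment 1, and each column is a library grouped by region, experiment and hours post fertilisation. Colour gives log2(normalised read count + 1). In experiment 1 the columns at 5 and 6 hpf hold 0 to 7 names above 0, and AP fills from 7 hpf. At 6 hpf of experiment 2, 13 and 9 names are above 0 in AP and 12 and 8 in VP. VP of experiment 1 fills mainly at 8 and 9 hpf, with 35, 1 and 20 names above 0 at 8 hpf and 34, 29 and 25 at 9 hpf. The 5 bottom rows with 0 throughout experiment 1 include trnar-acg.

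For single names, values were analysed as log2(value + 1) with limma over the 19896 genes that reached 10 in 3 or more libraries of experiment 1. Of the 50 names, 42 passed this filter and 8 did not (trnac-aca, trnaf-aaa, trnah-aug, trnal-uag, trnar-acg, trnar-ccg, trnat-cgu and trnay-aua). Only 1 of the 42, trnaf-gaa, would have passed on the 12 libraries at 5 and 6 hpf, against 15108 of 19896 genes (75.9%). The other 41 thus entered through the later libraries in which they were high. Their counts, fitted differences and p-values below describe them rather than give support. A gene was called at a Benjamini-Hochberg adjusted p under 0.05, two-sided.

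The 12 libraries at 8 and 9 hpf were set against the 12 at 5 and 6 hpf, both regions averaged. The lowest, median and highest summed tRNA value was 0, 18 and 401 in the early set and 390, 3059 and 10309 in the late set. The sets overlapped only between AP replicate 3 at 6 hpf (401) and the sparse VP replicate 2 at 8 hpf (390). In limma, 33 of the 42 names rose and 0 fell, where 4.66% of all genes tested were called (4.54% higher). Of the 33, 25 were listed at 0 in all 12 early libraries, so that no fold change is given for them. The median fitted difference in log2(value + 1) was 4.12 over the 42 names and 0.04 over all genes, and it depends on the 1 added to each value. The count was 13 without replicate 1, 21 without replicate 2 and 27 without replicate 3 of every group, and 33 without VP replicate 2 at 8 hpf.

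As a description of names that mostly entered the test through the later libraries, the calls covered 19 of 21 classes (20 amino acids and the stop name). The classes were not recounted without a replicate, where fewer names were called. The call of trnah-gug, the only histidine name tested, was lost in 6 of 15 alternative fits. Every tested name was called for asparagine, aspartate, cysteine, glutamate, glutamine, histidine, lysine, phenylalanine, proline, threonine, tryptophan and tyrosine. Alanine, arginine, glycine, isoleucine, leucine, serine and valine each had 1 tested name that was not called. These were trnaa-agc, trnar-ucu, trnag-ccc, trnai-uau, trnal-aag, trnas-cga and trnav-aac. Methionine (trnam-cau) and the stop name were not called.

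**Figure D3:**
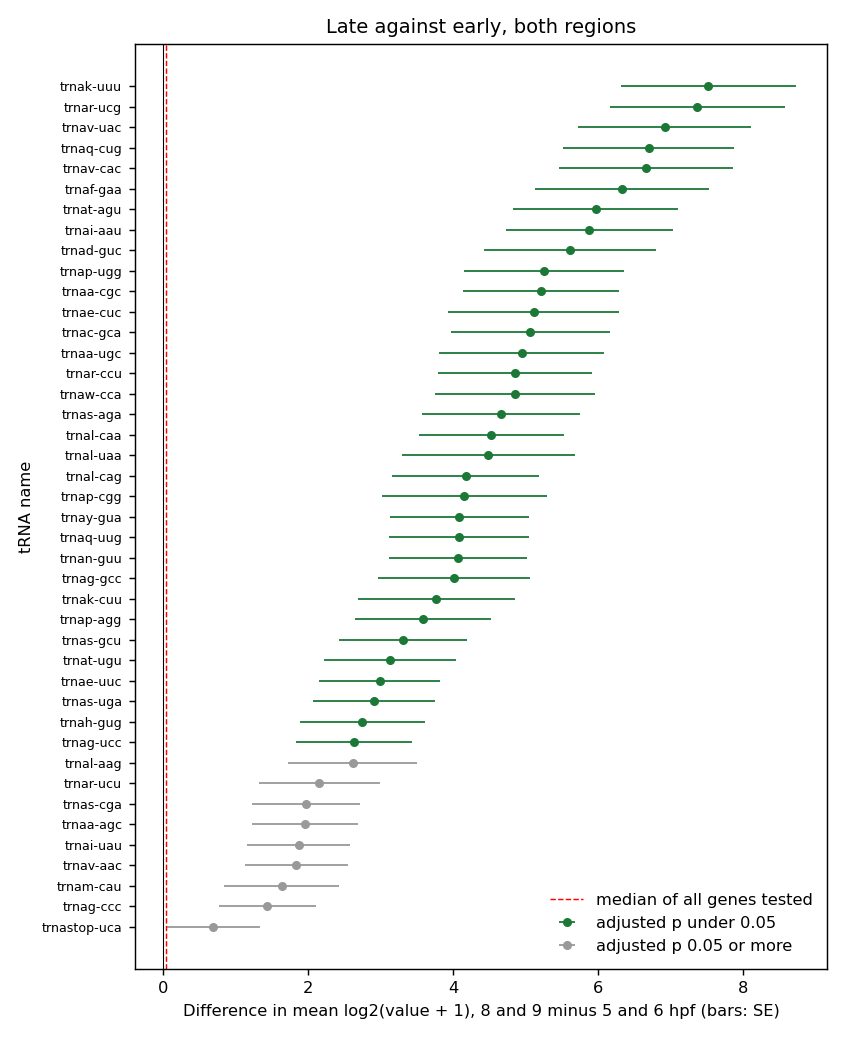
Difference in mean log2(value + 1) between the 12 libraries at 8 and 9 hpf and the 12 at 5 and 6 hpf for the 42 tested tRNA names (points, with SE bars from limma). Green points have an adjusted p under 0.05 (33 names), the red line marks the median of all genes tested (0.04), and differences of names listed at 0 in the early libraries depend on the 1 added.

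The arginine name trnar-ucg, whose anticodon pairs with the CGA codon, was the highest tRNA name over experiment 1. It was listed at 0 in all 12 libraries at 5 and 6 hpf. From 7 to 9 hpf it was 0, 164 and 154 in AP, then 48, 688 and 430, and then 624, 1394 and 2461. In VP it was 108, 0 and 0, then 106, 0 and 6, and then 494, 234 and 150. All 3 AP libraries at 9 hpf lay above all 3 VP libraries, but the difference between regions at 9 hpf was not called (VP minus AP in log2(value + 1) of -2.31 ± 2.42, SE, n = 3 a group, limma adjusted p = 0.918). As a description, limma called it higher at 9 than at 5 hpf in AP (adjusted p = 0.00859). The same holds for the late against the early times (adjusted p = 8.63e-07), since it entered the test through its later libraries. In experiment 2 the values at 9 hpf were 3034 and 3332 in AP and 2498 and 2366 in VP.

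The lysine name trnak-uuu, which reads AAA codons, had the smallest limma adjusted p of the family late against early (4.59e-07), as a description. It was also listed at 0 in all 12 early libraries. At 7 hpf its AP libraries held 12, 147 and 141, at 8 hpf 28, 503 and 238, and at 9 hpf 122, 699 and 843. Its VP values were 0, 27 and 68, then 474, 0 and 104, and then 506, 507 and 448. The 2 regions overlapped at 9 hpf, and within VP the 3 libraries were close to each other. Against 5 hpf it was called at 9 hpf in AP (adjusted p = 0.0300) and in VP (adjusted p = 0.0279). It was 1 of 2 names called against 5 hpf in both regions.

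The other was the phenylalanine name trnaf-gaa, the only name above 0 in as many as 3 of the 12 libraries of experiment 1 at 5 and 6 hpf. It was 24, 0 and 82 in AP and 0, 70 and 0 in VP at 6 hpf. It then stood at 7, 14 and 128, at 86, 902 and 250, and at 182, 489 and 532 in AP at 7, 8 and 9 hpf. In VP it was 0, 21 and 50, then 428, 0 and 375, and then 651, 269 and 392. The regions overlapped at each of these times. The late against early difference in log2(value + 1) was 6.33 ± 1.204 (SE, n = 12 a set, limma adjusted p = 3.18e-05). Against 5 hpf, where it was listed at 0 in all 6 libraries, it was called at 9 hpf in AP (adjusted p = 0.0350) and VP (adjusted p = 0.0357).

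The valine names trnav-cac and trnav-uac read GUG and GUA codons. At 9 hpf trnav-cac was 208, 595 and 551 in AP and 358, 193 and 356 in VP, and trnav-uac was 153, 346 and 538 in AP and 262, 103 and 490 in VP. Both sets of regions overlapped. Early values of trnav-cac were 21 in AP replicate 2 at 6 hpf and 19 in VP replicate 2 at 5 hpf, and 0 elsewhere. Its late against early difference was 6.66 ± 1.203 in log2(value + 1) (SE, n = 12 a set, limma adjusted p = 9.79e-06). The name trnav-uac had no early value above 0 (late against early adjusted p = 3.37e-06). The glutamine name trnaq-cug, which reads CAG, was likewise at 0 in all early libraries. It stood at 70, 566 and 341 in AP and 151, 187 and 295 in VP at 9 hpf (late against early limma adjusted p = 5.66e-06). The p-values of these valine and glutamine names are descriptions, since each name entered the test through its later libraries.

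The other high names, leucine aside, covered glutamate, aspartate, alanine, threonine and proline. At 9 hpf in AP, trnae-cuc was 63, 427 and 394, trnad-guc was 34, 341 and 185, and trnaa-ugc was 13, 254 and 256. In the same libraries trnat-agu was 70, 138 and 267 and trnap-ugg was 92, 112 and 275. In VP at 9 hpf, trnae-cuc was 186, 74 and 374, trnad-guc was 111, 146 and 305, trnaa-ugc was 77, 0 and 186, trnat-agu was 334, 68 and 18, and trnap-ugg was 172, 82 and 0. Each of these 5 names overlapped between regions. As a description, each was called late against early (limma adjusted p of 0.00118, 0.000261, 0.00105, 3.62e-05 and 0.000249, in the order given). The calls of trnae-cuc and trnap-ugg were lost without replicate 1.

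The methionine name trnam-cau, which does not separate initiator from elongator tRNA, was low in experiment 1. It was 50 in AP replicate 3 at 6 hpf and 39 in AP replicate 3 at 8 hpf, and at 9 hpf it was 12, 35 and 89 in AP and 23, 0 and 0 in VP. It was 0 in the remaining libraries of experiment 1. Its late against early difference was 1.63 ± 0.79 in log2(value + 1) (SE, n = 12 a set, limma adjusted p = 0.316). In experiment 2 it reached 277 and 422 in AP and 88 and 110 in VP at 9 hpf. The name trnastop-uca carries the anticodon of vertebrate selenocysteine tRNA, which decodes a stop codon. It was 0 to 25 in the libraries of experiment 1, with its highest value in AP replicate 2 at 9 hpf (late against early adjusted p = 0.748).

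Set against 5 hpf, tRNA names passed the test at 9 hpf and at no earlier time. In AP at 9 hpf, 10 of 42 names rose and 0 fell, where 1.72% of all genes tested were called in either direction and, after rounding, 1.72% higher. They were trnar-ucg, trnas-uga, trnav-cac, trnak-uuu, trnaf-gaa, trnav-aac, trnav-uac, trnaq-uug, trnan-guu and trnal-caa, with limma adjusted p from 0.00859 to 0.0496. All 10 were listed at 0 in the 3 AP libraries at 5 hpf. The median fitted difference was 6.16 over the 42 names and 0.41 over all genes. For 35 of the 42 names all 3 AP libraries at 9 hpf lay above all 3 at 5 hpf, as they did for 8.5% of all genes. Without any of replicates 1, 2 or 3 the count of calls was 0.

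In VP at 9 hpf, 2 of 42 names rose and 0 fell (1.25% of all genes called, 1.22% higher), with a median fitted difference of 4.24 over the names and -0.24 over all genes. For 14 of the 42 names the groups did not overlap, against 5.44% of all genes in that direction. These 2 calls were also lost without any of the 3 replicates. At 6, 7 and 8 hpf 0 names were called in either region by limma, where 0%, 0.0101% and 0.0653% of all genes were called in AP and 0.0101%, 0.00503% and 0.00503% in VP. At an unadjusted p under 0.05 there were 0, 7 and 22 names in AP and 0, 0 and 3 in VP. In AP at 8 hpf, 20 of the 42 names already lay above 5 hpf in all 3 libraries (5.65% of all genes), and in VP 0 did (1.65%). The VP count could only be 0, because replicate 2 held a single tRNA name above 0. That name, trnag-gcc, was 0, 390 and 0 in the 3 VP libraries, so the 2 counts do not compare the regions. These contrasts share their 5 hpf libraries and are not independent of each other.

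Within single regions, the late against early contrast was an addition made once the data were known. It called 26 names higher in AP (2.8% of all genes called, 2.78% higher) and 6 higher in VP (1.38%, 1.34% higher), and 0 lower in either. The VP names were trnak-uuu, trnaq-cug, trnaf-gaa, trnav-uac, trnai-aau and trnav-cac. The number of calls does not show that the regions differed: the difference between the 2 contrasts was called for 0 of 42 names (0% of all genes) and for 0 at an unadjusted p under 0.05. The AP count was 16 without replicate 1 and 1 without replicate 2 or without replicate 3, and the VP count was 0, 6 and 0 without replicates 1, 2 and 3.

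No tRNA name was called between the regions. For VP against AP, limma called 0 of 42 names at each of the 5 times, where 0.0955%, 0.0251%, 0.0101%, 0% and 0.377% of all genes were called at 5, 6, 7, 8 and 9 hpf. It called 0 over all times (0.709% of all genes). At 9 hpf, 33 names had a lower and 9 a higher fitted value in VP, and 7 had an unadjusted p under 0.05. The median difference was -1.67 in log2(value + 1) over the names and -0.53 over all genes, so all genes together were also lower in VP. At that time 5 names were lower in all 3 VP than in all 3 AP libraries (5.7% of all genes): trnah-gug, trnal-uaa, trnan-guu, trnar-ucg and trnas-cga. The difference between the regions in the change from 5 to 9 hpf was also called for no name (0 of 42, 0% of all genes, 1 name at an unadjusted p under 0.05).

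The leucine name trnal-uaa, which reads UUA codons, came nearest to a regional difference. From 7 to 9 hpf it was 28, 130 and 165 in AP, then 126, 198 and 233, and then 38, 510 and 667. In VP it was 0, 21 and 0, then 146, 0 and 0, and then 35, 34 and 0. From 7 to 9 hpf only VP replicate 1 at 8 hpf reached the AP range of its own time, and the single early values were 83 in AP replicate 1 at 5 hpf and 10 in AP replicate 3 at 6 hpf. Over both regions it was called late against early (4.48 ± 1.19 in log2(value + 1), SE, n = 12 a set, limma adjusted p = 0.00761), a call that was lost without replicate 1 and without replicate 2. Over all times the VP minus AP difference was -3.55 ± 1.07 in log2(value + 1) (SE, n = 15 libraries a region, limma unadjusted p = 0.000968, adjusted p = 0.0993). In experiment 2 the 2 regions overlapped at 9 hpf, with 255 and 89 in AP and 358 and 111 in VP. The next smallest unadjusted p over all times belonged to trnam-cau (0.0413) and trnap-ugg (0.0483), with adjusted p of 0.476 and 0.488.

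The serine name trnas-cga was above 0 in all 3 AP libraries at 9 hpf (9, 30 and 78) and listed at 0 in all 3 VP libraries (limma adjusted p = 0.146). At 8 hpf it was 39, 0 and 0 in VP and 0, 12 and 0 in AP. In experiment 2 at 9 hpf it was 139 and 94 in AP and 84 and 24 in VP, where AP was again the higher region. Of the other names lower in all 3 VP libraries at 9 hpf of experiment 1, trnar-ucg was also higher in AP there. The regions overlapped there for trnal-uaa, trnah-gug (0 and 66 in AP, 80 and 0 in VP) and trnan-guu (113 and 317 in AP, 160 and 201 in VP).

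The summed tRNA value at 9 hpf was led by a few amino acids. It describes captured RNA, in which precursor and mature tRNA are not separated, and not the tRNA pool of the embryo. Which RNA molecules gave these values was not tested. Arginine names gave 29.4%, 16.1% and 26.1% of the summed tRNA value in the 3 AP libraries and 17.2%, 15.5% and 3.16% in the 3 VP libraries. In experiment 2 they gave 32.6% and 30.01% in AP and 22.6% and 21.8% in VP. Arginine holds 10.5% of the annotated tRNA genes, so 1 VP library of experiment 1 lay below that share and the other 9 libraries lay above it. Valine names gave 12.8% ± 3.03 (SD, n = 3) in AP and 13.9% ± 3.75 (SD, n = 3) in VP, against 7.43% of annotated genes. Phenylalanine names gave 6.15% ± 1.69 and 10.3% ± 2.53 (SD, n = 3), against 2.34% of annotated genes. At the other end, glycine names gave 1.44% ± 1.11 and 1.32% ± 0.952 (SD, n = 3) against 6.21% of annotated genes, and methionine gave 0.590% ± 0.251 and 0.154% ± 0.267 against 3.60%. The 5 names of highest mean over experiment 1 were trnar-ucg, trnaf-gaa, trnak-uuu, trnav-cac and trnav-uac. Together they held between 37.4% and 57.5% of a library's summed tRNA value at 9 hpf, over the 10 libraries of both experiments.

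**Figure D4:**
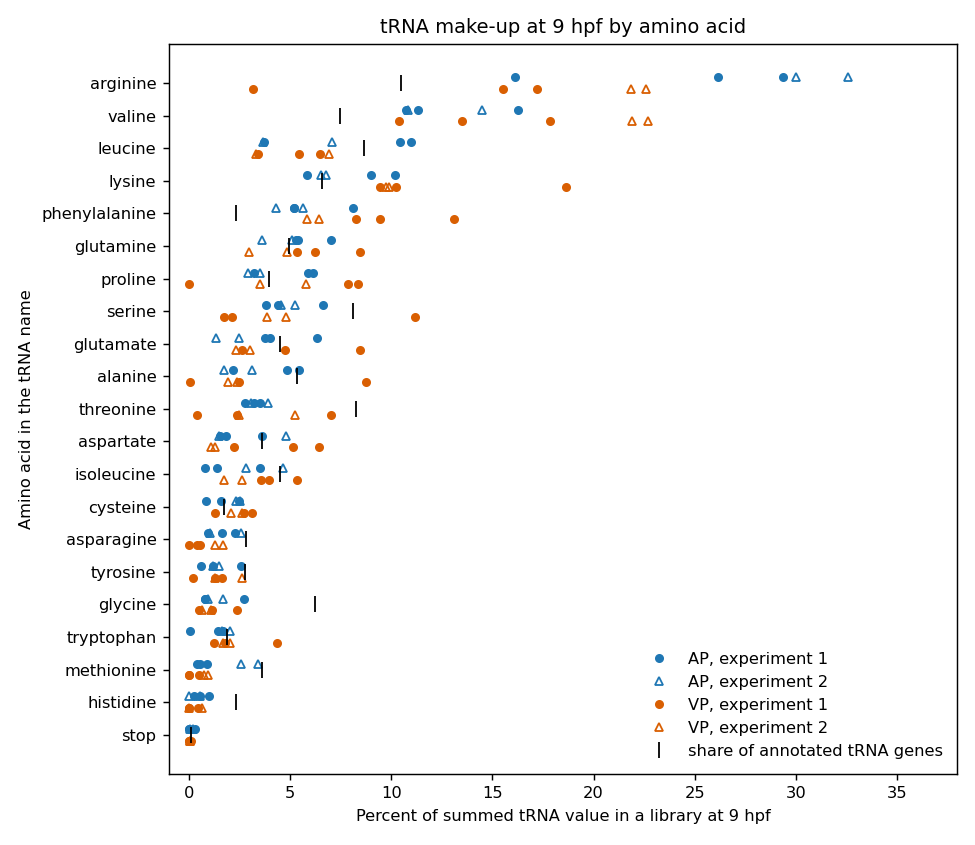
Percent of the summed tRNA value in each library at 9 hpf (horizontal axis) by amino acid, for AP (blue) and VP (orange) in experiment 1 (filled circles, 3 libraries a region) and experiment 2 (open triangles, 2 technical replicates a region). Black bars mark the share of annotated tRNA genes, and arginine lies above its bar of 10.5% in 9 of 10 libraries.

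Within an amino acid, the value was often held by 1 anticodon. Of the arginine value at 9 hpf, trnar-ucg made up 92.5% ± 1.75 in AP and 70.2% ± 26.0 in VP (SD, n = 3), and 88.3% and 89.8% as the means of experiment 2. It has 30 of the 274 annotated arginine tRNA genes (10.9%). By contrast trnar-ucu, with 94 annotated genes, was 16, 19 and 46 in AP and 0, 176 and 0 in VP, and trnar-acg, with 79, was listed at 0. Of the lysine value, trnak-uuu made up 85.5% ± 11.1 in AP and 98.2% ± 2.66 in VP (SD, n = 3), with 45.9% of annotated lysine genes. Valine was split between trnav-cac (54.4% ± 6.27 in AP, 53.5% ± 11.6 in VP) and trnav-uac (40.8% ± 6.01 and 43.9% ± 12.3, SD, n = 3). The third valine name, trnav-aac, made up 4.87% ± 3.27 and 2.53% ± 4.39 (SD, n = 3), with 36.6% of annotated valine genes. Of the glutamine value, trnaq-cug made up 68.6% ± 14.8 in AP and 78.1% ± 21.5 in VP (SD, n = 3), with 40.3% of annotated glutamine genes.

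Per 100 bases of the median annotated gene, the level of trnar-ucg was 2045 in AP at 9 hpf, followed by trnak-uuu (759.8), trnav-cac (618), trnaf-gaa (549) and trnal-uaa (488). In VP the order per 100 bases was trnak-uuu (667), trnaf-gaa (599), trnav-cac (414), trnar-ucg (401) and trnav-uac (390). The name trnar-ucg was the highest in each of the 3 AP libraries at 9 hpf, while the libraries of the other neighbours in both orders overlapped. The ordering of the 50 names was alike in all groups at 9 hpf, with Spearman's rho of 0.775 to 0.862 between the means of AP and VP in experiments 1 and 2. These are descriptions over names that share libraries.

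The number of annotated genes went only loosely with the value of a name. Spearman's rho over the 50 names was 0.392 in AP and 0.309 in VP at 9 hpf of experiment 1, and 0.444 and 0.355 in experiment 2, as a description. Single rows under a name could be compared as well, although the table does not tie a row to a genomic copy. Of the 787 rows, 205 were at 0 in all 46 libraries, and the other 582 formed 411 distinct profiles when rows that differed by at most 1 in every library were joined. In 26 of the 47 names above 0, the top profile held more than 50% of the name's value. For trnar-ucg, 2 of 6 rows held 98.5% of the value. For trnal-uaa 1 of 26 rows held 92.8%, and for trnak-uuu 3 of 17 rows held 86.9%.

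**Figure D5:**
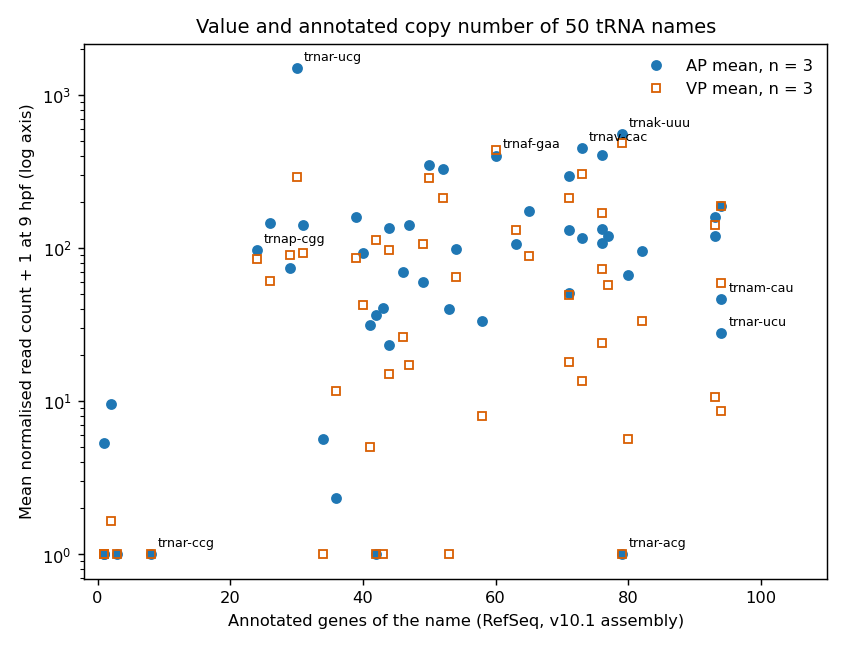
Mean normalised read count + 1 at 9 hpf of experiment 1 on a log axis (AP filled circles, VP open squares, n = 3 libraries each) against the number of annotated genes of each of the 50 tRNA names. The name trnar-ucg, with 30 genes, is the highest in AP, while trnar-acg, with 79 genes, is at 0 in both regions.

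No gene of the lists for making, processing and charging tRNA was called. In the late against early contrast limma called 0 of 14 tested Pol III subunit genes and 0 of 25 in the list of its initiation factors. It also called 0 of 24 genes for tRNA processing and export and 0 of 41 for tRNA modification. In the list of cytosolic aminoacyl-tRNA synthetases it called 0 of 40 (4.66% of all genes called). The initiation factor list also held maf1 and ssb, which are not initiation factors. The synthetase list also held aimp1, aimp2, eef1e1, pstk and sepsecs, which are not synthetases. At an unadjusted p under 0.05 the counts were 0, 0, 0, 1 and 0. The median differences in log2(value + 1) were -0.12, -0.07, -0.06, 0.13 and -0.33, in the same order, beside 0.04 for all genes. Each of the 5 lists also had 0 calls at 9 against 5 hpf in AP (1.72% of all genes) and VP (1.25%), and between the regions at 9 hpf (0.377%).

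One further Pol III transcript was tested, the 7SK RNA gene rn7sk, whose product holds back the elongation factor P-TEFb. Unlike most tRNA names it was present at 5 hpf, at 39, 109 and 52 in AP and 167, 112 and 0 in VP. At 9 hpf it was 295, 1258 and 1339 in AP and 473, 154 and 435 in VP. All 3 AP libraries at 9 hpf lay above all 3 at 5 hpf, while the VP groups overlapped. It rose late against early by 3.38 ± 0.96 in log2(value + 1) (SE, n = 12 a set, limma adjusted p = 0.0160), a call that was lost without any of the 3 replicates and with library weights, and it was not called at 9 against 5 hpf in AP (adjusted p = 0.512) or VP (adjusted p = 0.620).

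The genes outside the family whose log2(value + 1) ran most closely with the log2 summed tRNA value over the 30 libraries were sought among 11252 genes that reached 10 in 15 or more libraries. They were LOC108718436 (Pearson's r = 0.899), LOC108719558 (0.883), LOC108718446 (0.872), LOC108705785 (0.865) and LOC108702848 (0.861). The reference lists LOC108705785 as a long non-coding RNA and the other 4 as protein-coding genes. The closest, LOC108718436, was 0, 0 and 0 in AP at 5 hpf and 300, 2947 and 3204 at 9 hpf, and 0, 18 and 2 and then 990, 641 and 738 in VP. As with tRNA, AP replicate 1 was the lowest AP library at 9 hpf. The 30 points share their libraries and the 5 to 9 hpf time course, so the coefficients only describe likeness.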

How the data were processed

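Per the labels' protocols, embryos were kept at 22 °C and each received 10 nl of 50 mM EU, near 0.5 mM final, and total RNA was isolated with the RNeasy Mini Kit. EU-RNA was tagged by a click reaction and captured on streptavidin, and NuGEN libraries were made with ribosomal RNA depletion. The retention of RNA of tRNA length in these steps was not tested, and values do not separate precursor from mature tRNA.

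Per the submitters' processing notes, reads were quantified with Salmon 0.12.0 and normalised with DESeq2. The sources used here do not give its version, the genome build or the annotation. The deposited values, in the unit score, are whole numbers that behaved as normalised, rounded read counts: recomputed median-ratio factors over the 526 genes above 0 in all 46 libraries were 1.012 to 1.136. The depth in reads is therefore unknown, and no interval or detection floor was computed.

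Rows sharing a name were summed (1256 rows shared a name with an earlier row). Genes that reached 10 in 3 or more of the 30 libraries of experiment 1 were tested as log2(value + 1) with limma 3.58.1 (trend, robust, two-sided) in R 4.3.3, with 1 coefficient per region and time and Benjamini-Hochberg adjustment per contrast. The model was tested on simulated, normally distributed values without listed zeros or a clutch effect, so that test does not cover these features. Experiment 2 was described, not tested. P-values come from a fit that treats the 30 libraries of experiment 1 as independent, although they came from 3 clutches. Annotated gene numbers, lengths (name medians of 71 to 111 bases), neighbours and gene types came from RefSeq's v10.1 assembly, which may differ from the annotation the authors used, and no sequence was used. Python 3.11.15, numpy 2.4.6 and pandas 2.3.3 made the descriptions.

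The members and lists were chosen with earlier results of these data known. The rule for named genes took the 12 tRNA names of highest mean, up to 6 of smallest adjusted p, the 3 of smallest unadjusted p between regions over all times, trnaf-gaa, trnar-ucg, trnam-cau and trnastop-uca, up to 2 called genes per list and the 5 genes most correlated with the tRNA sum. Other tRNA names were chosen after their values were seen. Alternatives covered scaling, the added value, the filter, the libraries fitted, the replicate block, a covariate for genes above 0 per library, summing and left-out replicates. Library weights and the contrasts within regions were chosen after seeing the data.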

Additional observations from a re-analysis of the deposited data

How the results depend on the processing

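For 22 tRNA names and rn7sk, single-gene values were refitted for 9 against 5 hpf in each region, late against early, and VP against AP at 9 hpf and over all times: 1486 stayed on their side of the threshold, 83 were no longer past it and 60 were newly past it. No called value changed sign. Of the uncalled VP minus AP differences at 9 hpf, 17 of 332 refitted values, from 13 names, changed sign, and over all times 2 of 311 did. Counts of calls moved more. For AP at 9 against 5 hpf (10 names) they were 4 with values rescaled to the same library total, 22 with no filter, 1 with only the groups compared, 25 with experiment 2 added as 1 clutch, 5 with a covariate for genes above 0 per library and 6 with library weights. For VP (2 names) they were 6 with 5 added to each value, 7 with no filter, 0 with only the groups compared, 9 with experiment 2, 7 with the covariate, 0 with rows kept apart and 6 with library weights. Leaving out any replicate gave 0 to 0 in both. For late against early (33 names) the range was 13 to 27 without a replicate, and the other settings stayed within 1.5 times. Within AP (26 names) it was 1 to 16 without a replicate. Within VP (6 names) it was 0 to 6 without a replicate, 10 with no filter, 1 with only the groups compared, 15 with experiment 2, 10 with the covariate and 0 with rows kept apart. Between regions (0 names), 1 name was called lower in VP with no filter and 1 with only the groups compared, and over all times 1 with experiment 2 added. Over all times no fit with only the groups compared was made, since all 10 groups are compared. The cause of these moves was not tested.

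With the replicate number as a block, calls were 17 in AP and 4 in VP at 9 against 5 hpf and 33 late against early. The block changed no other count by over 1.5 times. An AP and a VP library of equal hpf had a residual correlation of -0.0237 to 0.103 (median 0.0279, 15 pairs) with equal numbers and -0.113 to 0.0777 (median -0.0129, 30 pairs) with unequal ones. Between times within AP it was 0.000951 to 0.222 (median 0.0582, 30 pairs, 12 over 0.1) with equal and -0.202 to 0.0461 (median -0.0539, 60 pairs) with unequal numbers, and within VP -0.0378 to 0.0853 (median 0.0237) and -0.0771 to 0.0736 (median -0.0122). Among the 3 replicate numbers, a library correlated best with its own in 24 of 30 comparisons in AP and 23 of 30 in VP, a hint from the data only. Since not every pair passed 0.1, the number was not taken to pair libraries. That limit is no test of pairing, and the main fit leaves out any clutch shared between groups. The summed tRNA value was also set against the sum over genes above 0 in all libraries, none of which is a tRNA name. This ratio was 0.867% at 9 hpf in both regions, 0.915% in AP and 0.819% in VP. The shares of all values were 0.215%, 0.257% and 0.173%. Rescaling to the library total moved the median of all genes from 0.41 to 0.26 in AP at 9 against 5 hpf. Normalised values without read depth limit what a listed 0 can show.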
